A study of Arabidopsis thaliana with 21 samples.

Results

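The genes described here are 38 genes of Arabidopsis thaliana that make, sense, inactivate or answer to the hormone jasmonate, chosen by locus identifier out of 32833 genes in the table. They fall into 4 steps: 13 genes of synthesis, 16 of conjugation and signalling, 4 of turnover and 5 of response. RNA came from whole seedlings 7 days old, grown in liquid medium of 0.5x MS, and was sequenced in 21 libraries, 3 for each of 7 groups. The groups were the wild type Col, 3 transgenic lines named after AtNEET (NEET10-10, NEET5-4 and NEET11-9) and 3 named H89C (H89C4-7, H89C11-7 and H89C23-10), a form that the series title calls dominant-negative. The labels name no treatment, all groups shared 1 age and medium, and the labels state neither the promoter nor the tag of the transgenes, nor how each line was derived.

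Jasmonate is made from fatty acids of the chloroplast. Lipoxygenases (LOX), allene oxide synthase (AOS) and allene oxide cyclases (AOC) build a ring in the plastid, and OPDA reductase 3 (OPR3), OPC-8:0 CoA ligase (OPCL1) and acyl-CoA oxidases (ACX) finish the hormone in the peroxisome. JAR1 joins it to isoleucine, and the conjugate binds the receptor COI1 together with a JAZ repressor, which is then degraded and frees MYC transcription factors. JAZ genes are themselves MYC targets, as are genes of the oxidases and cytochromes P450 that inactivate the hormone, and the pathway is known for answers to wounding, insects and necrotrophic fungi.

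Values are gene counts after division by the size factor of each library, done by the authors, and are called normalized counts below. Differences are on the scale of log2(normalized count + 1), which understates changes of genes with few reads, and are given ± their standard error (SE). Calls are at an adjusted p under 0.05 in limma-trend with the Benjamini-Hochberg adjustment over 20699 tested genes. All 6 comparisons with Col share the 3 Col libraries. Libraries are numbered 1 to 3 within a group. The labels do not say that libraries came from separate cultures, so each p measures only how these libraries scatter, and that scatter may be technical. Depth was 8.24 mega (M) reads in Col library 3 and at least 17.88 M in the others. AtNEET itself (AT5G51720, chr5:21009347-21010345 of TAIR10.1) had 261 ± 93.9 normalized counts (SD, n = 3) in Col, 16100 in H89C4-7, 2380 in H89C11-7, 1299 in H89C23-10, 32837 in NEET10-10, 18191 in NEET5-4 and 332 in NEET11-9. The 3 libraries of NEET11-9 lay within the range of Col (difference 0.40, adjusted p = 0.0404), so it is called the line labelled NEET11-9. The table does not separate the transgene from the native gene.

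Of the 38 genes, 33 passed the filter of at least 10 normalized counts in at least 3 libraries. Of the other five, DAD1 and MYC2 were at 0 in all 21 libraries, and JAZ8, TAT3 and PDF1.2 had too few reads. All 33 differed among the 7 groups by the moderated F test, against 85% of all tested genes. Where a step had more than 2 calls in a line they mostly went both ways; the exceptions, with every call higher than Col, were synthesis in H89C11-7, H89C23-10 and NEET11-9 and signalling in NEET10-10. VSP1 and VSP2, both response genes, were the only tested members for which all 9 H89C libraries lay on 1 side of the 12 others.

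In H89C4-7, 28 of the 33 genes were called, 17 higher and 11 lower, against 66.6% of all tested genes (33.6% higher and 33% lower). H89C11-7 had 17 calls, 15 higher and 2 lower, against a background of 37.7% (19.8% and 17.9%), and H89C23-10 had 16, 11 higher and 5 lower, against 22.1% (11.5% and 10.5%). NEET10-10 had 14 calls, 13 higher and 1 lower, where 30.3% of all genes were called (15.6% and 14.7%). NEET5-4 had 21, 13 higher and 8 lower, against 31% (14.1% and 16.9%), and NEET11-9 had 10, 7 higher and 3 lower, against 10.9% (4.49% and 6.44%). As shares of the 33 genes these were 84.8%, 51.5%, 48.5%, 42.4%, 63.6% and 30.3%, each above the share of all genes. The median difference of the 33 genes was small in every line, from 0.06 in H89C11-7 to 0.18 in H89C4-7 and NEET5-4, beside 0 to 0.01 for all tested genes. In 3 of the 6 lines the count of lower calls rested on single libraries. The 5 in H89C23-10 became 3 without Col library 2 or its own library 1 or 3, and 2 without Col library 3. The 1 in NEET10-10 became 0 without Col library 3 or its own library 3, and 4 without its library 2. The 3 in NEET11-9 became 0 to 1 without its library 2 or 3 or library 3 of Col, 5 without library 1 of Col and 6 without library 1 of NEET10-10.

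**Figure D1:**
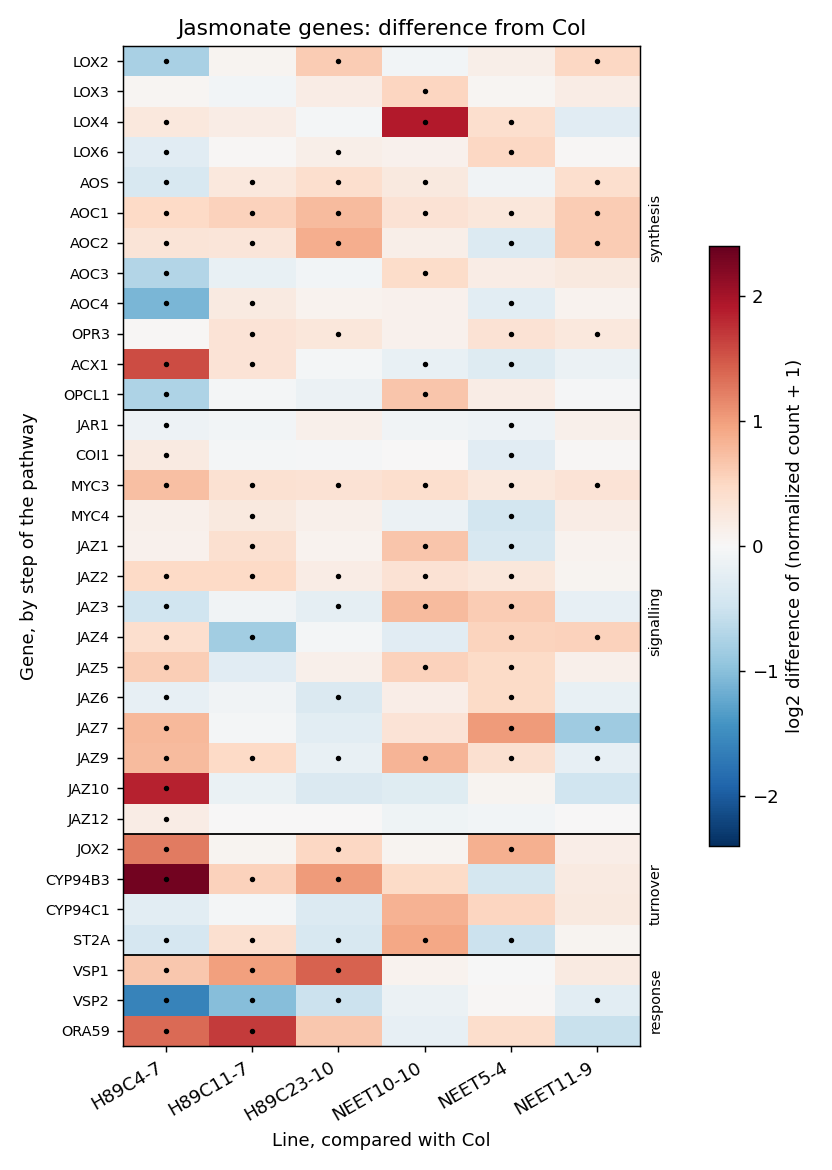
Log2 difference from Col of the 33 tested jasmonate genes (rows, by step) in the 6 transgenic lines (columns); red is higher, blue is lower, and a dot marks an adjusted p under 0.05 in limma-trend. The strongest colours are CYP94B3 (2.32) and JAZ10 (1.84) in H89C4-7, LOX4 in NEET10-10 (1.90), ORA59 in H89C11-7 (1.67) and VSP2 in H89C4-7 (-1.61), and VSP1 is red and VSP2 blue in all 3 H89C lines.

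The lines of 1 construct differed from each other. The F test among the 3 H89C lines called 31 of the 33 genes (93.9%, against 71.8% of all tested genes), all but MYC4 and CYP94C1. Among the 3 NEET lines it called 25 (75.8%, against 40.9%). When the line was taken as the unit, 3 H89C line means against 3 NEET line means, limma called 0 of the 33 genes, as it did 0% of all 20699. At an unadjusted p under 0.05 that comparison held 7 of the 33: VSP1, VSP2, ORA59, AOC3, CYP94C1, CYP94B3 and JAZ3. Of all tested genes 11.4% lay under that p, and none of these 7 is a call.

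VSP1 and VSP2 encode vegetative storage proteins, acid phosphatases that are classic markers of jasmonate response in leaves. They are neighbours on the minus strand of chromosome 5, VSP2 at chr5:8500468-8502224 and VSP1 at chr5:8507590-8509201 (TAIR10.1), 5365 bp apart. VSP1 had 171, 169 and 169 normalized counts in Col, then 238, 247 and 323 in H89C4-7, 347, 305 and 357 in H89C11-7, and 466, 434 and 461 in H89C23-10. In the NEET lines it had 182, 175 and 182 in NEET10-10, 177, 148 and 184 in NEET5-4, and 196, 184 and 216 in NEET11-9. All 9 H89C libraries lay above all 12 others, as they did for 1.71% of tested genes. VSP1 rose by 0.65 ± 0.10 in H89C4-7 (limma adjusted p = 5.21e-06), 0.98 ± 0.10 in H89C11-7 (adjusted p = 4.91e-08) and 1.41 ± 0.10 in H89C23-10 (adjusted p = 1.96e-10), that is 1.57-, 1.97- and 2.66-fold. The differences in the NEET lines, 0.08, -0.01 and 0.22, did not pass the test.

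VSP2 went the other way. It had 832, 856 and 929 normalized counts in Col, 274, 285 and 296 in H89C4-7, 437, 405 and 448 in H89C11-7, and 625, 520 and 682 in H89C23-10. NEET10-10 had 755, 832 and 789, NEET5-4 had 910, 927 and 836, and NEET11-9 had 777, 710 and 711. All 9 H89C libraries lay below all 12 others, as for 1.42% of tested genes. VSP2 fell by 1.61 on the log2 scale in H89C4-7 (SE 0.08, limma adjusted p = 2.11e-15), by 1.02 in H89C11-7 (adjusted p = 2.06e-10) and by 0.52 in H89C23-10 (adjusted p = 1.81e-05). The line with the lowest VSP2, H89C4-7, thus had the smallest rise of VSP1, and H89C23-10 the smallest fall of VSP2 and the largest rise of VSP1. In NEET11-9 the difference of -0.25 (adjusted p = 0.0369) was lost without its library 2 or 3 or without Col library 3 (adjusted p = 0.126 to 0.134).

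As a share of the summed counts of both genes, VSP1 made up 16.3% ± 0.829 (SD, n = 3) in Col and 48.4% ± 3.28, 43.9% ± 0.777 and 42.8% ± 2.58 in H89C4-7, H89C11-7 and H89C23-10. In the NEET lines the share was 18.5%, 16% and 21.4% in NEET10-10, NEET5-4 and NEET11-9. The summed count was 1042 in Col, 554 in H89C4-7, 767 in H89C11-7 and 1063 in H89C23-10, so in H89C23-10 the balance differed from Col at a like sum. The coding sequences are 88.1% identical, and 0.654% of the 50-base windows of VSP1 also occur in VSP2. How the authors' counter treated reads that match both is not given in the sources used here, so both levels carry that uncertainty. The promoters of the pair, from 250 bases before the annotated start to 50 after it, are shown because the genes moved in opposite directions; they lie at chr5:8509152-8509451 and chr5:8502175-8502474, minus strand, TAIR10.1 from RefSeq. Neither holds the G-box CACGTG, a core that MYC factors bind, or the GCC box GCCGCC that ERF factors bind, on either strand. Only these exact letters were searched, so other sites of these factors may be present.
VSP1: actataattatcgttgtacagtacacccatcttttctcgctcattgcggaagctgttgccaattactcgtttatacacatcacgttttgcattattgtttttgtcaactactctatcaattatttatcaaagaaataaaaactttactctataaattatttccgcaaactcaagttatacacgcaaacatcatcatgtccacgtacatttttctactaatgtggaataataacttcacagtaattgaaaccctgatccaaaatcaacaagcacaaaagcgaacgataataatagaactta
VSP2: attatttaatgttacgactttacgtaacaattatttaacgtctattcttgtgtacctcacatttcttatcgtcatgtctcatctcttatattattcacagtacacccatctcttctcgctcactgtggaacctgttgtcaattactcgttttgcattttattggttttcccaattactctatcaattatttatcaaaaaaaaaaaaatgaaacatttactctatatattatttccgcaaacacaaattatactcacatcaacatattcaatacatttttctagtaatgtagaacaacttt

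**Figure D2:**
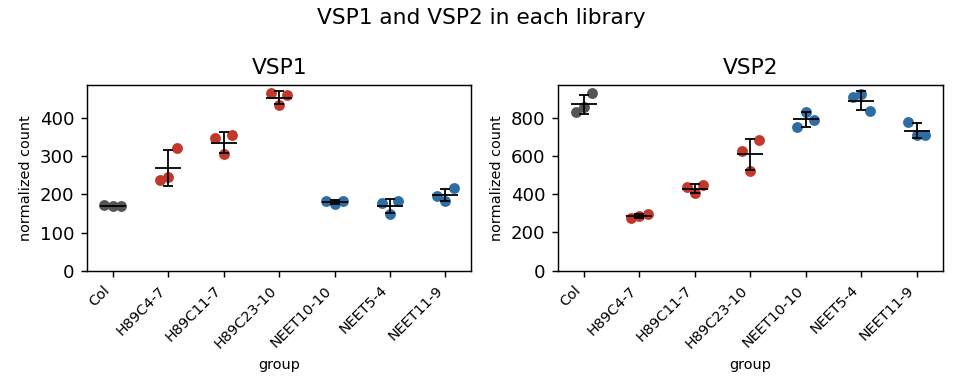
Normalized counts of VSP1 (left) and VSP2 (right) in each of the 21 libraries, by group; long bars are means and error bars SD (n = 3), with Col in grey, H89C lines in red and NEET lines in blue. The 9 H89C libraries lie above the 12 others for VSP1 and below them for VSP2.

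ORA59 and PDF1.2 belong to the ethylene-dependent branch of the response. ORA59 (AT1G06160, chr1:1882907-1883992, plus strand) is an ERF transcription factor that activates defensin genes through the GCC box. Its normalized counts were low, 7.15, 8.57 and 14.7 in Col, 31.4, 31.3 and 18.9 in H89C4-7, 34.8, 35 and 29.5 in H89C11-7, and 9.27, 17.6 and 23.9 in H89C23-10. NEET10-10 had 9.19, 7.74 and 8.04, NEET5-4 had 11.1, 15.5 and 13.8, and NEET11-9 had 7.72, 6.7 and 4.89. H89C4-7 and H89C11-7 lay above every Col and NEET library, while H89C23-10 overlapped them. The share of tested genes so placed was not counted. The rise was 1.36 ± 0.32 in H89C4-7 (limma adjusted p = 0.000645) and 1.67 ± 0.32 in H89C11-7 (adjusted p = 0.00021). In H89C23-10 the difference was 0.65 (adjusted p = 0.154), and 1.01 (adjusted p = 0.0366) without its library 1. It was -0.2, 0.42 and -0.54 in NEET10-10, NEET5-4 and NEET11-9, none of them called.

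PDF1.2 (AT5G44420, chr5:17906968-17907638, minus strand) encodes the plant defensin most used as a readout of this branch. It was too low for the filter, so its recovered whole reads are given. No read fell on it in the 3 Col or the 9 NEET libraries. Each of the 9 H89C libraries had 1 to 6 reads, 7 in H89C4-7, 10 in H89C11-7 and 14 in H89C23-10, 31 in all (exact Poisson 95% interval 21.1 to 44, counting error only). The mean normalized count of 3.36 was 11.1 times a floor of 3 reads over the NEET libraries. It was 2.75 times the same floor over the Col libraries, which are fewer. These ratios leave out the counting error of the 3.36 itself. Fitted with no filter, its differences from Col were 1.75, 2.1 and 2.29 in H89C4-7, H89C11-7 and H89C23-10. That fit gives no usable p, because the constant 0 of Col and the NEET lines adds no scatter to it.

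Reads on the near copies of PDF1.2 were spread likewise. PDF1.2b had 16 reads in 8 of 9 H89C libraries, PDF1.2c had 20 in 8 of 9, and PDF1.3 had 68 in 9 of 9. Elsewhere the 3 copies had 0 reads, save 1 read of PDF1.3 in NEET10-10. Their coding sequences are 91.4% to 94.7% identical with each other and with PDF1.2, so single reads may have been placed on the wrong copy, and the 4 genes are not independent evidence. TAT3, a tyrosine aminotransferase of the wound response, had at most 8.54 normalized counts in any library and showed no call when fitted without the filter.

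Promoters of ORA59 (chr1:1882657-1882956, plus strand) and PDF1.2 (chr5:17907589-17907888, minus strand) are shown because the ORA59 protein is known to bind the GCC box and both windows hold one. Capitals mark the GCC box and, in ORA59, also the G-box, which begins 194 bases before the start. In all, 2 of the 38 members (5.26%) have a GCC box in this window, against 2.57% of 27443 protein-coding genes searched the same way, and a match is only a description of the letters.
ORA59: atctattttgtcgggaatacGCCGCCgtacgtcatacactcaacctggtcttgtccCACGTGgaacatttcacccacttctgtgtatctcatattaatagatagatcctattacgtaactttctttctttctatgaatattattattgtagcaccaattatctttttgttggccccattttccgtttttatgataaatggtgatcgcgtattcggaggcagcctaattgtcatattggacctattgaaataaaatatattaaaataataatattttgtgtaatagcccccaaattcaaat
PDF1.2: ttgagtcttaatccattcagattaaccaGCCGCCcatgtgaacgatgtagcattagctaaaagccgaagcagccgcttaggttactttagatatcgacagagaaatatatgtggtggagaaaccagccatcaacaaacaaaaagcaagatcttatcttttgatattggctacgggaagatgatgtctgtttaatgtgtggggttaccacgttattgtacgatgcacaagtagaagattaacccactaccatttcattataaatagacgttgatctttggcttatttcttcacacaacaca

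**Figure D3:**
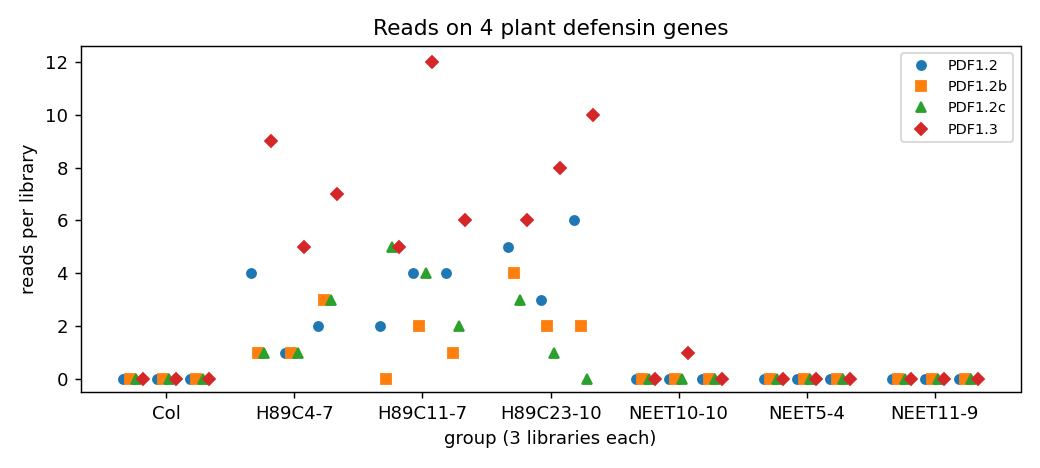
Whole reads per library on PDF1.2, PDF1.2b, PDF1.2c and PDF1.3 (symbols), with the 3 libraries of each group side by side. All 9 H89C libraries have reads on PDF1.2 and PDF1.3, and the 12 Col and NEET libraries have none except 1 read of PDF1.3 in NEET10-10.

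Tissue markers moved in some of the same lines. None of the shoot or root markers was at 0. The 6 shoot markers (antenna, Rubisco and photosystem genes) summed to 797686 to 825501 normalized counts in Col. Of these 6, 4 were lower in H89C4-7 (595216 to 662906), 5 in H89C11-7 (609894 to 657139), 4 in H89C23-10 (718655 to 751901), 6 in NEET10-10 (563708 to 626761), 3 in NEET5-4 (667050 to 724419) and 1 in NEET11-9 (835099 to 870480). The shoot sum was lowest in NEET10-10. The 6 root markers summed to 1623 to 1789 in Col, to 786 to 1152 in H89C4-7 with 6 lower, and to 919 to 1125 in H89C11-7 with 5 lower. In H89C23-10 the root sum was 1545 to 2233 with none called; in the NEET lines it was 1608 to 2135 with 1 marker higher in NEET10-10. The 6 seed storage markers summed to 4.9 to 180 in Col, 300 to 731 in H89C4-7 with 5 higher, 176 to 516 in H89C11-7 with 5 higher and 62.4 to 248 in H89C23-10 with 3 higher. In the NEET lines they were at most 37.5, with 1 lower in each and 2 to 4 of the 6 at 0. In Col 2 were at 0. The seed markers SESA1, SESA2 and SESA3 had at most 2.07 normalized counts in any Col or NEET library. They passed the filter only through H89C libraries, where they are high, so their higher calls are given as a description. In whole seedlings, fewer cells of a type and less RNA per cell cannot be told apart, and the part of tissue make-up in the jasmonate results was not tested.

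In synthesis, each line had its own set of changed enzymes. H89C4-7 had 4 genes higher and 6 lower of 12 tested, H89C11-7 and H89C23-10 had 6 higher and none lower, NEET10-10 had 6 higher and 1 lower, NEET5-4 had 4 higher and 3 lower, and NEET11-9 had 5 higher and none lower. As shares of the 12, called either way, these were 83.3%, 50%, 50%, 58.3%, 58.3% and 41.7%. Of all tested genes, 66.6%, 37.7%, 22.1%, 30.3%, 31% and 10.9% were called in the same lines. AOC1 was the only enzyme called higher in all 6 lines, by 0.28 (NEET5-4) to 0.75 (H89C23-10). It had 496, 556 and 557 normalized counts in Col and 617 to 959 in the other libraries. The 6 comparisons share the Col libraries, so they are not separate evidence.

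Lipoxygenases start the pathway. Per kilobase of exon, Col had 2550 normalized counts of LOX2, 300 of LOX6, 100 of LOX3 and 45.6 of LOX4. LOX2 (AT3G45140), the plastid enzyme that supplies most jasmonate in wounded leaves, had 7539, 8564 and 8735 normalized counts in Col, 5284, 4758 and 4409 in H89C4-7, 8832, 8557 and 8444 in H89C11-7, and 13008, 12139 and 12574 in H89C23-10. It had 7182, 8475 and 8220 in NEET10-10, 8722, 9084 and 9551 in NEET5-4, and 11862, 11782 and 11095 in NEET11-9. H89C4-7 thus lay below and H89C23-10 above every other library, as for 17.3% and 1.24% of tested genes. LOX2 fell by 0.78 in H89C4-7 (SE 0.07, limma adjusted p = 1.07e-10) and rose by 0.61 in H89C23-10 (adjusted p = 1.73e-07) and 0.49 in NEET11-9 (adjusted p = 7.66e-06).

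LOX4 (AT1G72520), a 13-lipoxygenase close to LOX3, was the gene of NEET10-10. It had 123, 174 and 120 normalized counts in Col, 161, 163 and 169 in H89C4-7, 156, 165 and 142 in H89C11-7 and 134, 136 and 127 in H89C23-10. In NEET10-10 it had 483, 551 and 516, in NEET5-4 197, 178 and 169, and in NEET11-9 121, 111 and 106. The 3 NEET10-10 libraries lay far above the 18 others, as they lay above them for 2.9% of tested genes. LOX4 rose 3.74-fold there (1.90 ± 0.11, limma adjusted p = 2.59e-12) and by 0.40 in NEET5-4 (adjusted p = 0.00826), the latter not without Col library 3 (adjusted p = 0.0591) or library 1 of NEET5-4 (adjusted p = 0.0513). The call in H89C4-7 (0.26, adjusted p = 0.0476) was lost on leaving out any of 15 of the 21 libraries (adjusted p = 0.0501 to 0.237). Calls were gained in H89C11-7 without Col library 2 (0.34, adjusted p = 0.0119) and in NEET11-9 without Col library 3 (-0.38, adjusted p = 0.0428). LOX3 was called only in NEET10-10 (0.51, adjusted p = 2.58e-06), and LOX6, the lipoxygenase of roots and xylem, fell by 0.28 in H89C4-7 and rose by 0.14 in H89C23-10 and 0.50 in NEET5-4.

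AOS and the cyclases form the OPDA ring. AOS, the single allene oxide synthase, fell by 0.38 in H89C4-7 and rose by 0.23 to 0.40 in 4 lines, all but NEET5-4 (-0.08, adjusted p = 0.232). AOC2 rose by 0.87 in H89C23-10 and 0.60 in NEET11-9, by about 0.3 in H89C4-7 (0.30) and H89C11-7 (0.29), and fell by 0.33 in NEET5-4. AOC1, AOC2 and AOC3 stand in a row on chromosome 3, 1330 and 1088 bp apart, and the coding sequences of AOC1 and AOC2 are 89.9% identical, but none of the 50-base windows of AOC1 occurs in AOC2 (0%) and 3.35% occur in AOC3.

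AOC4 (AT1G13280) lies apart on chromosome 1. It had 685, 773 and 885 normalized counts in Col, 383, 331 and 378 in H89C4-7, 874, 881 and 934 in H89C11-7 and 827, 824 and 821 in H89C23-10. NEET10-10 had 825, 816 and 879, NEET5-4 had 680, 654 and 631, and NEET11-9 had 870, 787 and 827. Only H89C4-7 stood clear of the rest, below all 18 other libraries, as it did for 17.3% of tested genes. AOC4 fell there by 1.09 (SE 0.07, limma adjusted p = 1.34e-12). The rise in H89C11-7 (0.21, adjusted p = 0.0285) was lost without Col library 1 or 2 or its own library 3 (adjusted p = 0.198, 0.0576 and 0.112). The fall in NEET5-4 (-0.25, adjusted p = 0.0111) was lost without Col library 3 or its own library 3 (adjusted p = 0.11 and 0.0536). Without Col library 3 NEET10-10 gained a call (0.21, adjusted p = 0.0308). AOC3 likewise fell in H89C4-7, by 0.70 (adjusted p = 3.04e-05), and rose in NEET10-10 by 0.44 (adjusted p = 0.0089).

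ACX1 and OPCL1, both peroxisomal enzymes, parted in H89C4-7. ACX1 (AT4G16760), the acyl-CoA oxidase of the beta-oxidation that shortens the side chain of the precursor and also works on other fatty acids, had 2287, 2242 and 2219 normalized counts in Col, 6240, 7144 and 6740 in H89C4-7, 2860, 2833 and 2807 in H89C11-7, and 2200, 2135 and 2242 in H89C23-10. NEET10-10 had 1727, 2258 and 2010, NEET5-4 had 1774, 1860 and 1819, and NEET11-9 had 2095, 1946 and 2022. H89C4-7 stood far above all others, and it lay above the 18 other libraries for 20.9% of tested genes. H89C11-7 came next, with no overlap with Col, as for 23.1% of tested genes. The rise was 2.98-fold in H89C4-7 (1.57 ± 0.06, limma adjusted p = 6.71e-17) and 0.33 in H89C11-7 (adjusted p = 0.0002), with a fall of 0.31 in NEET5-4 (adjusted p = 0.000516). The call in NEET10-10 (-0.18, adjusted p = 0.0363) was lost on leaving out any Col library or its own library 1 or 3 (adjusted p = 0.0544 to 0.315), and one in NEET11-9 (-0.15) was gained without library 1 of NEET10-10 (adjusted p = 0.0325). The rise in H89C4-7 was shared by other genes of beta-oxidation. KAT2 and MFP2 had means of 15260 and 3751 there, against 4987 and 1940 in Col. AIM1 had 3468 against 3385.

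OPCL1 (AT1G20510), the ligase that activates the precursor for that oxidation, moved the opposite way to ACX1 in H89C4-7. It had 468, 580 and 534 normalized counts in Col, 332, 303 and 301 in H89C4-7, 502, 521 and 505 in H89C11-7 and 465, 472 and 491 in H89C23-10. NEET10-10 had 765, 884 and 845, NEET5-4 had 571, 566 and 653, and NEET11-9 had 516, 520 and 520. H89C4-7 lay below and NEET10-10 above every other library, as for 17.3% and 2.9% of tested genes. OPCL1 fell by 0.75 in H89C4-7 (SE 0.07, limma adjusted p = 2.36e-09) and rose by 0.66 in NEET10-10 (adjusted p = 2.08e-07). Calls were gained in H89C23-10 without Col library 1 (-0.23, adjusted p = 0.0273) and in NEET5-4 without Col library 2 or library 1 of NEET10-10 (0.25 and 0.18, adjusted p = 0.0154 and 0.0498). OPR3, the reductase between the cyclases and OPCL1, rose by 0.25 to 0.34 in 4 lines and was not called in H89C4-7 (0.03) or NEET10-10 (0.11). DAD1, a phospholipase that releases the fatty acid in anthers, was at 0 in every library.

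**Figure D4:**
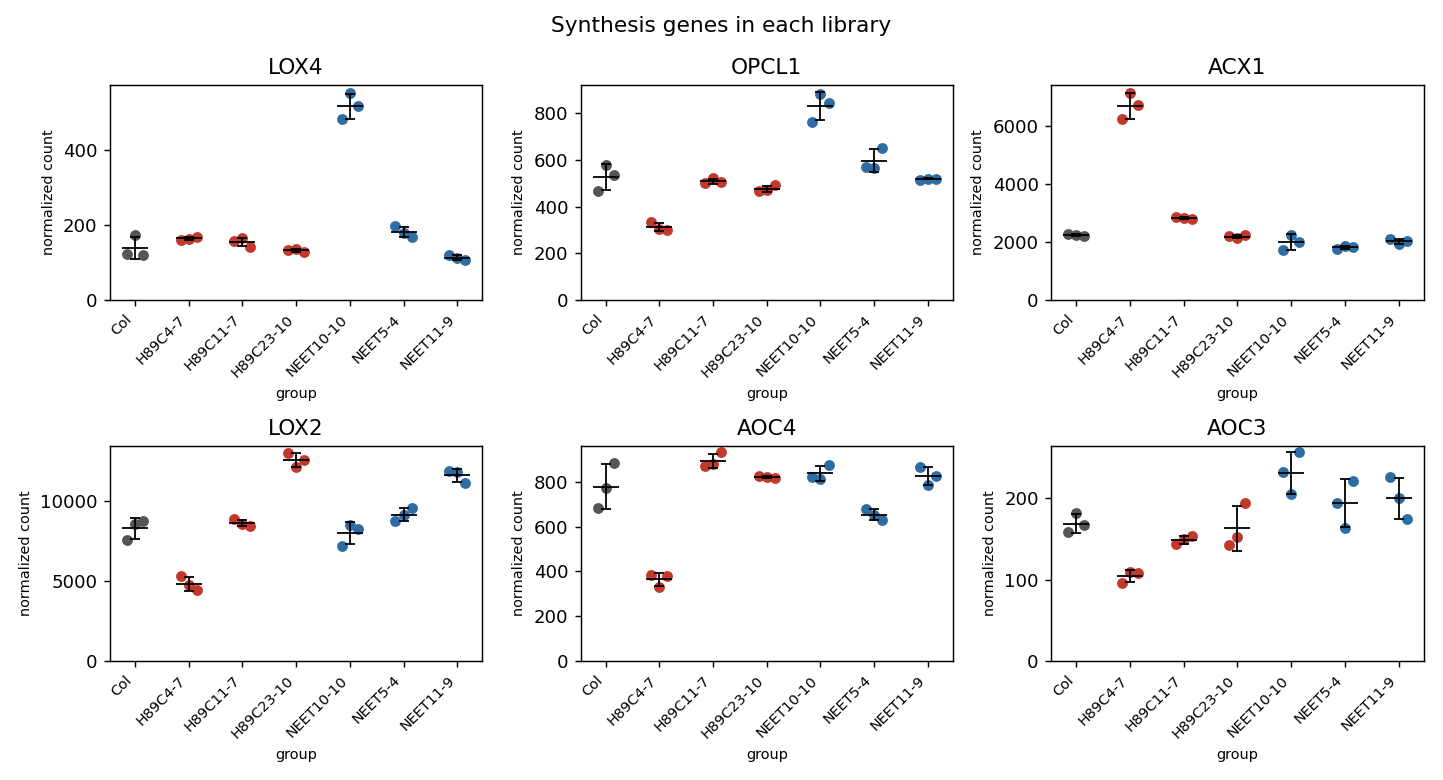
Normalized counts of LOX4, OPCL1, ACX1, LOX2, AOC4 and AOC3 in each library, by group; long bars are means and error bars SD (n = 3). H89C4-7 is high for ACX1 (6240 to 7144) and low for OPCL1, LOX2, AOC4 and AOC3, and NEET10-10 is high for LOX4 (483 to 551) and OPCL1.

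The promoter of ACX1 (chr4:9428846-9429145, minus strand) is shown as that of the synthesis gene with the highest rise in H89C4-7, with that of JAZ7 (chr2:14572780-14573079, plus strand), a repressor that rose in H89C4-7 and NEET5-4 (values below). Capitals mark their G-boxes, 92 and 34 bases before the start. A G-box stood in 7 of the 38 members (18.4%: AOS, ACX1, JAZ2, JAZ3, JAZ7, JAZ8 and ORA59), against 7.68% of the 27443 promoters.
ACX1: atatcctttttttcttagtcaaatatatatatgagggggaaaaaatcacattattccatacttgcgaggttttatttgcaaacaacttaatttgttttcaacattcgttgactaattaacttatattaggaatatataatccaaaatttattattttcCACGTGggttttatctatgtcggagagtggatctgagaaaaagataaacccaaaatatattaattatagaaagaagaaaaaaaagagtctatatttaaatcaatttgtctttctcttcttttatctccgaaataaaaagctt
JAZ7: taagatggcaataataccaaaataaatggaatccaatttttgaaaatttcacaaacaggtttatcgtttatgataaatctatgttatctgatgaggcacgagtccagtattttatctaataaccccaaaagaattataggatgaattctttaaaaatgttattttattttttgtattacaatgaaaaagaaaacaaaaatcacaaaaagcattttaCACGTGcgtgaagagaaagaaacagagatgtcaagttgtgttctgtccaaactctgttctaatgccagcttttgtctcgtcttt

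Conjugation and perception changed little. JAR1, which makes the active conjugate, differed by -0.13 to 0.13 in the 6 lines, with falls of 0.12 in H89C4-7 (limma adjusted p = 0.0269) and 0.13 in NEET5-4 (adjusted p = 0.041). COI1, the receptor, rose by 0.22 in H89C4-7 and fell by 0.28 in NEET5-4 and was not called in the other lines.

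MYC factors switch on the response genes. MYC2 (chr1:11798119-11801407, minus strand) was listed at 0 in all 21 libraries, and 98.5% of its exon bases are shared with AT1G32630 on the other strand, which had 36.7 to 84 normalized counts. Of 487 protein-coding genes with at least 95% of their exon bases so shared, 88.1% were at 0 in every library, against 11.7% of 19821 genes with none shared, so the 0 of MYC2 is no measure of its expression. No other member shared more than 4.53% of its exon bases (JAZ12). MYC3 was called higher in all 6 lines, by 0.26 in NEET5-4 to 0.72 in H89C4-7. These 6 comparisons share the Col libraries and are not separate evidence. How many other genes were called higher in all 6 was not counted. Its Col libraries had 1659, 2211 and 2160 normalized counts and the 18 others 2296 to 3368, so Col library 1 was the lowest, and no library of the other groups reached down to the Col range. MYC4 rose by 0.23 in H89C11-7 and fell by 0.44 in NEET5-4.

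Of the 11 JAZ repressor genes here, 10 were tested, and no line moved all of them 1 way. In H89C4-7, 7 rose and 2 fell, and in NEET5-4, 7 rose and 1 fell. Of all tested genes, 33.6% were called higher and 33% lower in H89C4-7, and 14.1% and 16.9% in NEET5-4. JAZ10 (AT5G13220), a repressor that jasmonate strongly induces, was the clearest. It had 34, 47.1 and 34.3 normalized counts in Col, 129, 149 and 138 in H89C4-7, 37.9, 39 and 26.5 in H89C11-7, and 34.5, 31.7 and 23.9 in H89C23-10. NEET10-10 had 20.4, 48.2 and 29.5, NEET5-4 had 47, 37.3 and 36.6, and NEET11-9 had 30.9, 25.1 and 25.3. The 3 libraries of H89C4-7 stood above all 18 others, as for 20.9% of tested genes. JAZ10 rose by 1.84 ± 0.24 there (3.58-fold, limma adjusted p = 2.23e-07) and was not called in another line (-0.48 to 0.07), although without library 2 of NEET10-10 the difference there was -0.61 (adjusted p = 0.0481).

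JAZ7 (AT2G34600) had 14.3, 23.6 and 22.1 normalized counts in Col, 25.4, 43.4 and 35.6 in H89C4-7, 13.7, 24 and 20.3 in H89C11-7 and 13.5, 14.1 and 22.2 in H89C23-10. It had 27.6, 22.4 and 24.1 in NEET10-10, 39.6, 39.3 and 43.5 in NEET5-4, and 9.44, 10.9 and 10.6 in NEET11-9. NEET5-4 lay above Col and NEET11-9 below it without overlap, as for 18.5% and 14.1% of tested genes. The rise in NEET5-4 was 1.02 ± 0.26 (limma adjusted p = 0.00345). The rise of 0.77 in H89C4-7 (adjusted p = 0.0119) was lost without Col library 1 or its own library 2 (adjusted p = 0.0856 and 0.0754), and the fall of 0.86 in NEET11-9 (adjusted p = 0.0324) without Col library 2 or 3 or any library of its own (adjusted p = 0.0702 to 0.106).

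JAZ4 (AT1G48500) had 89.4, 136 and 142 normalized counts in Col, 139, 169 and 171 in H89C4-7, 65.3, 65.1 and 69.2 in H89C11-7, and 111, 131 and 108 in H89C23-10. NEET10-10 had 90.9, 112 and 95.6, NEET5-4 had 154, 189 and 180, and NEET11-9 had 167, 169 and 196. H89C11-7 was the lowest line, below all other libraries, as for 2.72% of tested genes. The fall there was 0.84 (SE 0.15, limma adjusted p = 5.75e-05). The rises in H89C4-7, NEET5-4 and NEET11-9 (0.40, 0.53 and 0.56) rested on Col library 1, without which they were 0.19 (adjusted p = 0.21), 0.32 (adjusted p = 0.0757) and 0.35 (adjusted p = 0.112); library 2 or 3 of H89C4-7 (adjusted p = 0.0625 and 0.0697) and library 3 of NEET11-9 (adjusted p = 0.0785) also decided theirs. Without Col library 1 the difference in NEET10-10 was -0.49 (adjusted p = 0.00679).

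Among the other repressors, JAZ9 had the widest set of calls. It rose in H89C4-7 (0.76), H89C11-7 (0.48), NEET10-10 (0.81) and NEET5-4 (0.38) and fell in H89C23-10 and NEET11-9, by 0.18 and 0.20. Both lines with the lower JAZ9 had the least AtNEET of their construct. A link of JAZ9 to the AtNEET level was not tested, and the share of all genes so ordered was not counted. JAZ3 fell in H89C4-7 and H89C23-10, by 0.48 and 0.22, and rose in NEET10-10 and NEET5-4, by 0.75 and 0.61. JAZ1 rose by 0.66 in NEET10-10 and 0.39 in H89C11-7 and fell by 0.39 in NEET5-4. JAZ2 rose in every line but NEET11-9, by 0.18 to 0.48. JAZ5 rose by 0.59, 0.56 and 0.45 in H89C4-7, NEET10-10 and NEET5-4. JAZ6 rose by 0.46 in NEET5-4 and fell in H89C4-7 and H89C23-10, by 0.20 and 0.35, and JAZ12 was called only in H89C4-7 (0.18). JAZ8 had at most 4 normalized counts in any library.

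Turnover genes gave the largest single change. CYP94B3 (AT3G48520, chr3:17974853-17976774, minus strand) hydroxylates the jasmonate-isoleucine conjugate. It had 36.7, 55.7 and 39.2 normalized counts in Col, 228, 219 and 209 in H89C4-7, 53.8, 70.1 and 69.2 in H89C11-7, and 85.1, 85.4 and 94.8 in H89C23-10. NEET10-10 had 55.1, 71.4 and 54.5, NEET5-4 had 42.4, 31 and 24.7, and NEET11-9 had 44.6, 41 and 69.3. H89C4-7 and then H89C23-10 lay above every Col and NEET library, and H89C11-7 overlapped both. H89C4-7 was above all 18 other libraries, as for 20.9% of tested genes. The share above Col and NEET was not counted for H89C23-10. The rise was 4.98-fold in H89C4-7 (2.32 ± 0.20, limma adjusted p = 2.25e-10) and 2.02-fold in H89C23-10 (1.02 ± 0.20, adjusted p = 0.000595). The call in H89C11-7 (0.56, adjusted p = 0.0318) was lost without Col library 1 or 3 or its own library 2 or 3 (adjusted p = 0.0955 to 0.118). Calls were gained in NEET10-10 without Col library 2 (0.65, adjusted p = 0.0245) and in NEET5-4 without its library 1 (-0.62, adjusted p = 0.0311).

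JOX2 (AT5G05600), an oxygenase that hydroxylates free jasmonic acid, had 349, 337 and 289 normalized counts in Col, 792, 735 and 794 in H89C4-7, 337, 334 and 341 in H89C11-7, and 456, 441 and 481 in H89C23-10. NEET10-10 had 324, 319 and 375, NEET5-4 had 547, 615 and 594, and NEET11-9 had 355, 390 and 338. H89C4-7, NEET5-4 and H89C23-10, in that order, lay above all other libraries. H89C4-7 was above all 18 others, as for 20.9% of tested genes. The share of tested genes placed as NEET5-4 and H89C23-10 were was not counted. The rises were 1.25 ± 0.08 in H89C4-7 (limma adjusted p = 4.1e-13), 0.85 ± 0.08 in NEET5-4 (adjusted p = 2.9e-09) and 0.50 ± 0.08 in H89C23-10 (adjusted p = 3.95e-05).

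ST2A (AT5G07010), the sulfotransferase that acts on hydroxyjasmonate, had 147, 199 and 199 normalized counts in Col, 141, 122 and 144 in H89C4-7, 207, 263 and 243 in H89C11-7, and 123, 145 and 148 in H89C23-10. NEET10-10 had 330, 374 and 328, NEET5-4 had 130, 120 and 124, and NEET11-9 had 192, 187 and 184. NEET10-10 stood above all other libraries, as for LOX4 and for 2.9% of tested genes. ST2A rose by 0.93 ± 0.12 in NEET10-10 (limma adjusted p = 9.92e-07) and fell in NEET5-4 and H89C4-7, by 0.52 (adjusted p = 0.000989) and 0.41 (adjusted p = 0.00354). The rise in H89C11-7 (0.39, adjusted p = 0.00918) was lost without Col library 1 or its own library 2 (adjusted p = 0.0841 and 0.0625), and the fall in H89C23-10 (-0.38, adjusted p = 0.0212) without Col library 2 or 3 or its own library 1 (adjusted p = 0.09 to 0.122). CYP94C1, which carries the oxidation on, had 9.01 to 36.6 normalized counts and was called against Col in no line.

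**Figure D5:**
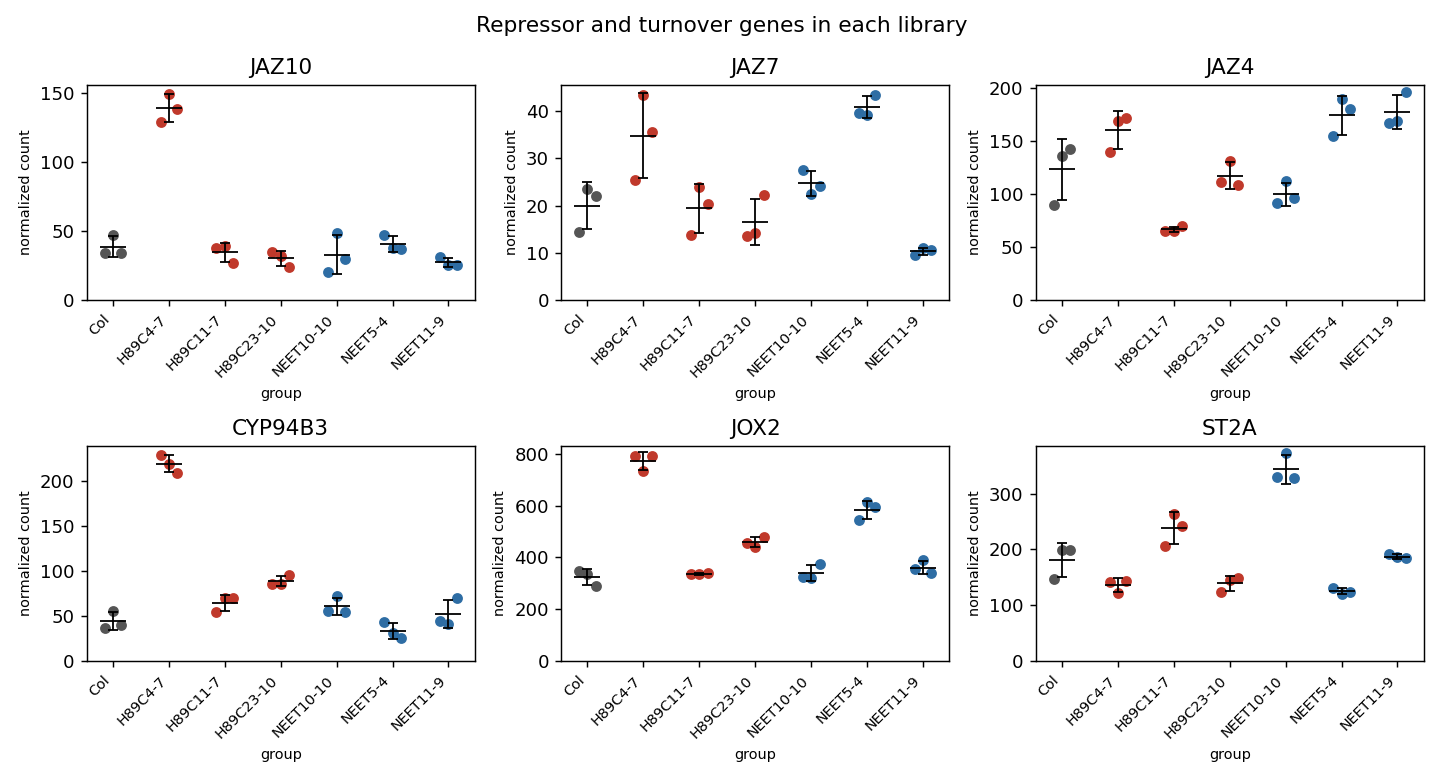
Normalized counts of the repressor genes JAZ10, JAZ7 and JAZ4 and the turnover genes CYP94B3, JOX2 and ST2A in each library, by group; long bars are means and error bars SD (n = 3). H89C4-7 is highest for JAZ10, CYP94B3 and JOX2, NEET10-10 for ST2A, and H89C11-7 is lowest for JAZ4.

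A list of 43 further jasmonate genes had 38 tested. The test called 31 in H89C4-7 (23 higher, 8 lower), 18 in H89C11-7 (15 and 3), 16 in H89C23-10 (13 and 3), 17 in NEET10-10 (9 and 8), 16 in NEET5-4 (7 and 9) and 7 in NEET11-9 (4 and 3). As shares of the 38 these were 81.6%, 47.4%, 42.1%, 44.7%, 42.1% and 18.4%, beside 66.6%, 37.7%, 22.1%, 30.3%, 31% and 10.9% of all tested genes. In NEET5-4 the 10 tested response genes of this list had 6 calls, all lower, with a median difference of -0.70. Of all tested genes 16.9% were called lower in that line. The 3 tested response genes among the members had 0 calls there, with a median difference of 0.03.

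The widest span was that of AT2G38240, annotated as a 2-oxoglutarate and Fe(II)-dependent oxygenase. It had 2.68, 3.21 and 0 normalized counts in Col and 173, 267 and 212 in H89C4-7 (a difference of 6.43 ± 0.55), and at most 14 in any other library. It passed the filter on low values only through H89C4-7, where it is high, so its difference there is given as a description. Its call in H89C11-7 (1.54, adjusted p = 0.0297) was lost without Col library 3 or its own library 2 or 3 (adjusted p = 0.083 to 0.209). AT3G11180, with the same annotation, had 5.36, 7.5 and 14.7 normalized counts in Col. It fell in H89C4-7 by 2.15 (adjusted p = 0.000216), to at most 3.63, and in H89C11-7 by 1.36 (adjusted p = 0.0217), the latter not without Col library 3 (adjusted p = 0.122) or its own library 2 (adjusted p = 0.0768).

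NAC055, a NAC transcription factor downstream of MYC2, had 142, 119 and 110 normalized counts in Col and 1077, 1146 and 1037 in H89C4-7, a rise of 8.76-fold (3.13 ± 0.10, limma adjusted p = 2.3e-19). It also rose in H89C11-7 (1.33, adjusted p = 7.99e-11) and NEET10-10 (0.97, adjusted p = 2.65e-08) and was within 0.04 of Col in the other lines. JAV1, a VQ-motif repressor of jasmonate defence, rose by 1.64 in H89C4-7 (adjusted p = 2.02e-10), 0.79 in H89C11-7 (adjusted p = 9.33e-05), 0.53 in H89C23-10 (adjusted p = 0.00789) and 0.50 in NEET10-10 (adjusted p = 0.00887). Without Col library 1 the last pair of calls was lost (adjusted p = 0.0502 and 0.0566), and that in NEET10-10 also without its own library 3 (adjusted p = 0.0587), while NEET5-4 gained one without Col library 1 (-0.38, adjusted p = 0.048). NIG1 (AT5G46830), a calcium-binding transcription factor with at most 19.4 normalized counts, fell by 2.1 in H89C4-7 (adjusted p = 0.000534).

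PR4 is a hevein-like protein of the ethylene and jasmonate branch. It paralleled VSP1 in that all 9 H89C libraries (1599 to 2261 normalized counts) lay above all 12 others (591 to 1091), as for 1.71% of tested genes. It rose by 0.82 in H89C4-7 (limma adjusted p = 6.92e-12), 1.08 in H89C11-7 (adjusted p = 7.48e-13) and 0.66 in H89C23-10 (adjusted p = 9.33e-09). In NEET5-4 and NEET11-9 it fell, by 0.75 (adjusted p = 1.56e-10) and 0.62 (adjusted p = 3.32e-08). The difference in NEET10-10 (-0.18, adjusted p = 0.0265) was lost without Col library 1 or 3 or its own library 1 or 2 (adjusted p = 0.0524 to 0.127). Not every response gene of the further list rose in the H89C lines. CHIB, a basic chitinase, had means of 409 in Col, 139 in H89C4-7, 472 in H89C11-7 and 312 in H89C23-10. ERF1 had 6.69 in Col and 2.89, 6.47 and 5.17 in those lines. OPR1 and MFP2, synthesis genes of that list, also had all 9 H89C libraries above the 12 others.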

How the data were processed

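RNA-seq of 21 libraries in 7 groups was analysed from 1 table of 32833 genes. Its values are a signal that the authors deposited, gene counts divided by 1 size factor per library. The submitters' processing notes name FastQC 0.11.7, STAR 2.4.0.1, DESeq2 1.20.0 and the TAIR10 genome; which counter was used, whether it took strand into account and what it did with reads of several matches is not given in those notes or the labels. In every library the values were whole multiples of 1 step (100% whole within 0.001), which gave reads back: 8.24 to 24.68 mega (M) reads per library, median 21.16 M, 26740 genes with reads.

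Genes with at least 10 normalized counts in at least 3 libraries (20699) were tested on log2(normalized count + 1) by limma-trend (limma 3.58.1, R 4.3.3) with 1 mean per group, 14 residual degrees of freedom and the Benjamini-Hochberg adjustment over all tested genes at 0.05. Each line was compared with Col; F tests covered the 7 groups, the 3 H89C lines and the 3 NEET lines; constructs were compared on 6 line means. The fit was checked on simulated data. Alternatives were pseudocounts of 0.5 and 5, no filter, TMM scaling, edgeR 4.0.16 (quasi-likelihood) and DESeq2 1.42.0 on the recovered reads, the replicate number as a block, only the groups compared, and each library left out.

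Values per library are given for the 14 genes of the list with the widest span of group means, and for the widest of each step; 6 of a further 43 pathway genes were named by the same rule. The members and lists were chosen with earlier results of these data known. Positions, sequences and names come from TAIR10.1 of RefSeq, which held 32548 of the genes; promoters run from 250 bases before to 50 after the annotated start, and both strands were searched. Intervals and floors (3 reads for a count of 0) cover counting error only.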

Additional observations from a re-analysis of the deposited data

Results flagged for a closer look

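Several genes differed in opposite directions from Col in lines of the same construct, both changes being called. The difference between the lines was then taken in limma over all genes. The pairs were picked by these opposite calls in the same fit, so their adjusted p values were bound to be small and are no separate evidence. Within the H89C construct, H89C4-7 minus H89C11-7 gave -1.3 for AOC4 (adjusted p = 5.79e-14), 1.24 for JAZ4 (adjusted p = 5.04e-08), -0.8 for ST2A (adjusted p = 1.58e-06) and -0.63 for AOS (adjusted p = 1.34e-11) on the log2 scale. H89C4-7 minus H89C23-10 gave -1.39 for LOX2 (adjusted p = 1.58e-15), -0.77 for AOS (adjusted p = 2.44e-13), -0.42 for LOX6 (adjusted p = 3.33e-08) and 0.94 for JAZ9 (adjusted p = 1.12e-14). H89C11-7 minus H89C23-10 gave 0.66 for JAZ9 (adjusted p = 2.22e-10) and 0.77 for ST2A (adjusted p = 1.82e-05). Some of the calls against Col behind these pairs were lost on leaving out single libraries, as given above. They are AOC4 and ST2A in H89C11-7, JAZ4 in H89C4-7 and ST2A in H89C23-10, so the opposite directions of these genes are not firm.

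Within the NEET construct, NEET10-10 minus NEET5-4 gave 1.05 for JAZ1 (adjusted p = 2.46e-09) and 1.45 for ST2A (adjusted p = 1.72e-10). NEET10-10 minus NEET11-9 gave 1 for JAZ9 (adjusted p = 1.43e-14). NEET5-4 minus NEET11-9 gave 0.57 for JAZ9 (adjusted p = 6.54e-10), 1.89 for JAZ7 (adjusted p = 2.71e-06) and -0.93 for AOC2 (adjusted p = 4.18e-13). The fall of JAZ7 in NEET11-9 was lost without any of several single libraries, and was not called by edgeR (adjusted p = 0.0728) or DESeq2 (adjusted p = 0.106). JAZ9 and ST2A thus differed in this way within both constructs. For ST2A in the H89C lines this rests on the rise in H89C11-7, which single libraries decided. Groups of 3 libraries are too small for the test of single outlying samples.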

How the results depend on the processing

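The counts of jasmonate genes called higher in each line and those of the F tests stayed within 1.5 times their values under the pseudocounts, no filter, TMM scaling, edgeR, DESeq2, the block and every left-out library, and the higher counts also in fits of only the 2 groups compared, which were not run for the F tests. Counts of lower genes moved in 3 lines. With only the 2 groups compared, those in H89C23-10 went from 5 to 2, in NEET10-10 from 1 to 0 and in NEET11-9 from 3 to 0. With no filter NEET10-10 went to 0 and NEET11-9 to 1, and with edgeR and with DESeq2 NEET10-10 went to 0; that gene is ACX1, and its adjusted p there was 0.0508 and 0.0522.

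With 1 library left out, the higher and lower counts ranged from 13 to 17 and 9 to 11 in H89C4-7, 12 to 15 and 2 to 2 in H89C11-7, 9 to 12 and 2 to 6 in H89C23-10, 13 to 16 and 0 to 4 in NEET10-10, 11 to 14 and 6 to 9 in NEET5-4, and 5 to 9 and 0 to 6 in NEET11-9. The F tests gave 32 to 33 genes over 7 groups, 28 to 31 among H89C lines and 22 to 26 among NEET lines, and H89C against NEET gave 0 each time. Over the named genes, 3806 values kept their direction and side of the threshold, 92 lost the call, 13 gained one and 0 reversed.

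With the replicate block the higher and lower counts were 17 and 11 in H89C4-7, 15 and 2 in H89C11-7, 11 and 5 in H89C23-10, 13 and 1 in NEET10-10, 13 and 7 in NEET5-4 and 8 and 3 in NEET11-9. Same-numbered libraries did not deviate together: over 21 pairs of groups the correlation of deviations ran from -0.037 to 0.053, and 6 of 21 libraries correlated best with their own number, so the samples share only a number. TMM scaling moved the median of all genes by at most 0.012 on the log2 scale. Reads on PDF1.2 and its copies, JAZ8 and TAT3 are few, which limits what can be said of them.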
